A study of Mus musculus with 12 samples.

Results

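The transcripts described here belong to 38 mouse genes of Kupffer cells, other macrophages, monocytes and the chemokines and cytokines that go with them. They were chosen by gene symbol, for their known roles and with earlier results of these data known, from the 50559 genes listed in the count tables. Grouped by role they are 10 resident Kupffer cell genes, 7 genes of macrophages in general, 6 genes of lipid-associated macrophages, 3 monocyte genes, 4 genes of pattern recognition and 8 chemokine and cytokine genes. Liver RNA of C57BL/6N mice was sequenced in 4 groups of 3 libraries, 12 in all. NCD mice ate normal chow and HFD mice ate a high-fat diet with 60% of its energy from fat, each for 12 weeks. HFD+C1 and HFD+C2 mice had the high-fat diet and daily intraperitoneal injections of compound C1 or C2 at 5 mg/kg over the same 12 weeks. The series title calls both compounds inhibitors of CYP4A, the cytochrome P450 family that hydroxylates fatty acids at their end carbon, and the labels give no structure. Age, sex and an injection given to NCD or HFD mice are not given in the sources used here, so a compound and its injection cannot be told apart. Each library is labelled as a biological replicate; that the replicates are separate animals is not stated, and p-values measure the spread between these libraries.

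Kupffer cells are the macrophages that live in the sinusoids of the liver, where they take up particles, bacteria and worn red cells from portal blood. They carry their own markers, such as the lectin Clec4f, beside genes shared with all macrophages, such as the receptor Csf1r. In fatty liver, resident cells can be lost and replaced from monocytes, which enter through the receptor Ccr2 and its ligand Ccl2, and some macrophages take on a lipid-handling state marked by Trem2, Gpnmb and Spp1. Chemokines such as Cxcl1 and Cxcl9 draw in neutrophils and T cells. In RNA from whole tissue, fewer cells of a type and less RNA per cell cannot be told apart.

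Levels are given in CPM, the usual per-library scaling of a read count by all reads the library had in genes. Log2 differences and p-values come from edgeR's quasi-likelihood test, run on every gene whose mean count over the 6 libraries was 10 or more, and a gene is called at a Benjamini-Hochberg adjusted p under 0.05. NCD replicate 2 was the shallowest library, with 4281210 reads in genes, and HFD replicate 1 the deepest, with 32124248. The floor of 3 counts stood for 0.701 CPM in the shallowest and 0.0934 CPM in the deepest. Libraries NCD replicate 1 and HFD+C2 replicate 1 stood apart: 58.2% and 47.1% of their reads were not assigned to a gene, against 27.3% to 40.7% in the other 10. Of all reads 21.5% and 21.9% were unmapped in these 2 libraries, 23.2% and 10.9% mapped to no feature, 7.88% and 9.04% were ambiguous between genes and 5.54% and 5.17% mapped to several places. Their log-scale correlations with the other libraries of their group were 0.914 and 0.941 for the first and 0.950 and 0.948 for the second, against 0.979 to 0.994 between the other pairs. Where leaving out either library moved a log2 difference of 1 of the 38 genes quoted here by more than 1.5 times, the value without it stands beside it. No pair of libraries of a group agreed within sampling noise.

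Promoter sequences are shown for 5 of the more abundant macrophage genes, picked without a fixed rule. They were not drawn to stand for the 38 genes, whose shares are given below. PU.1, an ETS factor encoded by Spi1, is known to drive many macrophage genes. Spi1 had 2.75 ± 0.80 CPM in NCD, 5.11 ± 1.73 in HFD, 7.17 ± 1.11 in HFD+C1 and 5.76 ± 1.52 in HFD+C2 (SD, n = 3). Its part in the differences below was not tested. The sequences are RefSeq windows of 300 bases around the annotated start (GRCm38.p6), printed 5′ to 3′ on the gene's strand, and 30 of the 38 genes had at least 1 window. Both strands were searched for AGGAAGT, an ETS core, and for GAGGAAGT, a PU.1 core that contains it; capitals mark matches, which in the 4 windows that hold one lie on the opposite strand.
Clec4f (chr6:83656067-83656366, minus strand): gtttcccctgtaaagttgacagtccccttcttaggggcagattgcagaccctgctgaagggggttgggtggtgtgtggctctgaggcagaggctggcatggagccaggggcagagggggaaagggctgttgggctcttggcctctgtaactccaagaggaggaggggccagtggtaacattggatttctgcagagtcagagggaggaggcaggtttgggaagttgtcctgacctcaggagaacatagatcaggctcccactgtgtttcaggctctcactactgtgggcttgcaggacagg
C1qb (chr4:136886151-136886450, minus strand): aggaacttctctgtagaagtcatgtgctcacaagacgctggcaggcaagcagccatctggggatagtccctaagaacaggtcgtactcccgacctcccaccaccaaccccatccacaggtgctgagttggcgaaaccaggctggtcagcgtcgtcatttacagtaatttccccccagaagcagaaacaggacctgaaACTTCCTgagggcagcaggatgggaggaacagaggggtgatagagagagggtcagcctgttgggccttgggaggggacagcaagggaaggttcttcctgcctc
C1qc (chr4:136892865-136893164, minus strand): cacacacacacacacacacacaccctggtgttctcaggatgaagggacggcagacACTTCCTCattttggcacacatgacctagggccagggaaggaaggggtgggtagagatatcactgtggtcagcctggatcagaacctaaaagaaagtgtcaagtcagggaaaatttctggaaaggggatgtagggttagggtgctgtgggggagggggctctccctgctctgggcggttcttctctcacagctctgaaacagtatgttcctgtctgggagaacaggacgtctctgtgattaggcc
Ctss (chr3:95526536-95526835, plus strand): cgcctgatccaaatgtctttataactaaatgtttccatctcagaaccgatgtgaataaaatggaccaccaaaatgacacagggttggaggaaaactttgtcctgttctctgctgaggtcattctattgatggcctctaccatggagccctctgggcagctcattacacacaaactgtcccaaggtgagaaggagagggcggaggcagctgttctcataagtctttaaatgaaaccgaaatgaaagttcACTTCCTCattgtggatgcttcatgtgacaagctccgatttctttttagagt
Lyz2 (chr10:117282223-117282522, minus strand): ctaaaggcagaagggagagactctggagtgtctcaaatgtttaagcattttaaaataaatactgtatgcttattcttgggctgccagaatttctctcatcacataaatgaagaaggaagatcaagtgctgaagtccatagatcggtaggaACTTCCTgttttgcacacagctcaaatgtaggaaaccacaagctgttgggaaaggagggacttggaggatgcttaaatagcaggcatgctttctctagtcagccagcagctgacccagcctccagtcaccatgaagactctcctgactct

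The window of Clec4f holds neither motif, those of C1qb and Lyz2 hold the ETS core, and those of C1qc and Ctss hold the PU.1 core and with it the ETS core. Of all 32851 promoter windows 9.35% hold the ETS core, and of the 34 windows of member genes 11 do (32.4%). The PU.1 core is in 3.20% of all windows and in 5 of the 34 (14.7%). Ly6c2 has 2 overlapping windows that hold the same matches and were both counted; by gene, 10 of 30 held the ETS core and 4 of 30 the PU.1 core. A match describes letters in a window and not a bound site, and the absence of one says only that these letters are not in this window.

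The defining macrophage markers Adgre1 (F4/80), Csf1r (the receptor for the growth factor CSF1) and Clec4f were above the floor in all 12 libraries. Per kilobase of exon, the highest of the 38 levels in HFD livers was that of Cd5l, a secreted scavenger protein of tissue macrophages, at 27.1 ± 5.40 CPM per kilobase (SD, n = 3 here and below). Clec4f followed at 26.3 ± 2.72, the complement subunit C1qa at 23.7 ± 4.85, C1qb at 22.8 ± 2.53, lysozyme (Lyz2) at 22.0 ± 6.41 and cathepsin S (Ctss) at 21.7 ± 2.53 CPM per kilobase. Neighbours in this order lay within their spread of each other. The lower end held Itgax, Gpnmb, Ly6c2 and Nlrp3, between 0.0708 and 0.0963 CPM per kilobase, and Il6, which had 0 counts in the 3 HFD libraries, where 0 counts allow up to 0.0934 to 0.119 CPM.

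**Figure D1:**
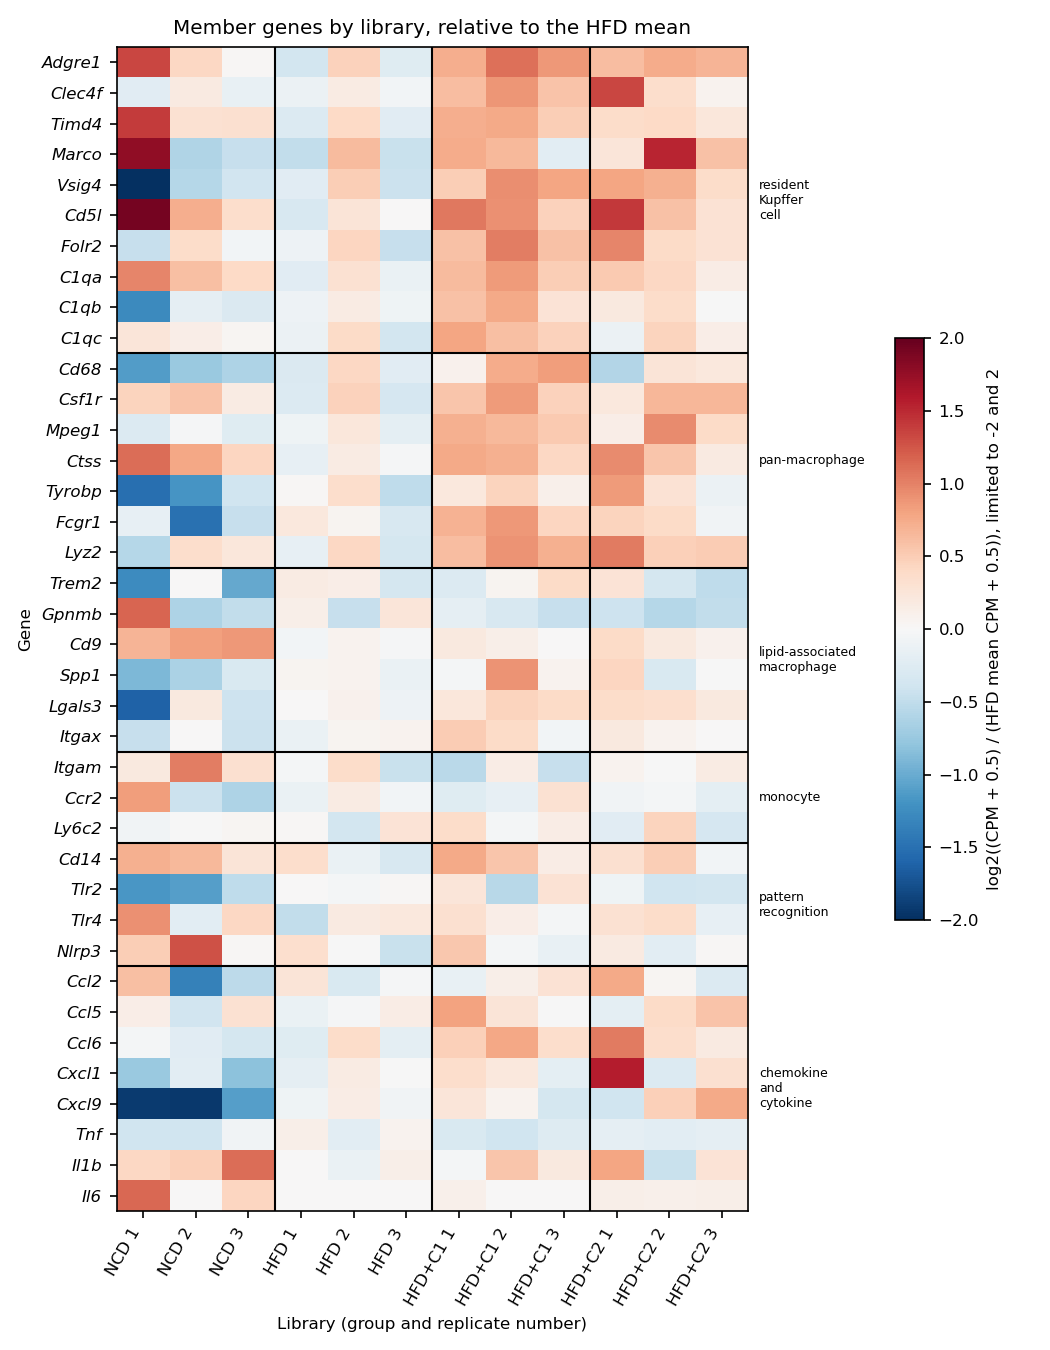
Level of each of the 38 genes (rows, by class) in each of the 12 libraries (columns), as log2 of CPM plus 0.5 over the HFD mean plus 0.5; red is above the HFD mean and blue below. The resident Kupffer cell rows are red in HFD+C1 (9 or 10 of 10 genes above the HFD mean in each library), NCD replicate 1 mixes strong red and strong blue, and HFD replicate 2 is the reddest of the 3 HFD columns.

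The first comparison asked what the high-fat diet did. Of the 38 genes 33 could be tested, and 1 was called: Cxcl9, a chemokine induced by interferon-gamma that attracts T cells, rose. For comparison 6.03% of all 13864 genes tested were called (836). Of the 33, 20 had positive and 13 negative log2 differences, with a median of 0.14 against -0.02 over all genes tested. At an unadjusted p under 0.05, 7 were higher and 4 lower in HFD, where the background was 13.0% of genes higher and 15.9% lower. The groups did not overlap, with HFD higher, for 6 of the 33 (background 11.9%) and with HFD lower for 5 (background 27.0%). The unadjusted counts became 12 higher and 4 lower without NCD replicate 1, where 15.1% and 13.7% of all genes were higher and lower. They became 3 and 4 without HFD replicate 2, where these shares were 8.67% and 11.6%. They were 5 and 1 without HFD replicate 1 (6.81% and 10.2% of all genes) and also without HFD replicate 3 (8.08% and 11.2%). DESeq2 called 5 of the 33 members beside 16.6% of all genes and limma with voom and quality weights 7 beside 23.2%, shares of the members near those of all genes. With libraries scaled by their total gene count alone, the members' median turned to -0.05, as that of all genes moved to -0.24.

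Cxcl9 (chr5:92321347-92328079, minus strand, GRCm38) stood at 2.13, 2.10 and 4.10 CPM in NCD replicates 1 to 3 and at 8.81, 10.6 and 8.93 CPM in HFD. All HFD libraries were above all NCD libraries. Its log2 difference was 1.87 (SE 0.32, edgeR adjusted p = 0.0249). The call was lost when any 1 HFD library was left out, with adjusted p = 0.175 without replicate 1, 0.103 without replicate 2 and 0.140 without replicate 3, while the log2 difference stayed between 1.83 and 1.93. Without NCD replicate 1 it was 1.56 (edgeR adjusted p = 0.00185). Calls over all genes moved too, from 6.03% to 0.165%, 0.94% and 0.179% without HFD replicates 1, 2 and 3. They were 13.7% without NCD replicate 1.

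Of the other ligands, Cxcl1, which attracts neutrophils, had 2.44, 3.74 and 2.29 CPM in NCD and 3.83, 5.02 and 4.37 CPM in HFD, with no overlap (log2 0.91, SE 0.30, edgeR adjusted p = 0.0947). Il1b, an inflammasome-processed cytokine, went the other way, at 1.32, 1.40 and 2.46 CPM in NCD against 0.872, 0.747 and 0.992 CPM in HFD (log2 -0.83, SE 0.49, adjusted p = 0.294). The groups did not overlap for it either. Ccl2, Ccl5 and Ccl6 overlapped between diets, with log2 differences of 0.51, 0.08 and 0.43, which were 1.45, -0.07 and 0.48 without NCD replicate 1. Tnf and Il6 were too low to test: Tnf had at most 0.218 CPM in any of the 6 libraries and Il6 at most 0.609 CPM.

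Genes of lipid-associated macrophages did not move as one. Osteopontin (Spp1), a secreted matrix protein, stood at 15.8, 19.2 and 24.1 CPM in NCD and at 31.0, 31.4 and 27.3 CPM in HFD (log2 0.80, SE 0.22, edgeR adjusted p = 0.0658). Cd9, a membrane tetraspanin, lay at 14.5, 16.1 and 16.6 CPM in NCD and at 8.53, 9.36 and 8.77 CPM in HFD (log2 -0.62, SE 0.19, adjusted p = 0.0777). Each was separate between the diets, in opposite directions. Both were called without NCD replicate 1, with log2 differences of 0.59 (adjusted p = 0.0378) and -0.74 (adjusted p = 0.0142). Trem2, the lipid-sensing receptor that names this state, was at or under the floor in the 3 NCD libraries (0, 0.701 and 0.0864 CPM) and at 0.841, 0.818 and 0.437 CPM in HFD, so no fold is given. Gpnmb, Lgals3 and Itgax overlapped between the diets, and Itgax was not tested. Lgals3 had a log2 difference of 0.76, and 0.36 without NCD replicate 1. For Gpnmb, a low gene, the difference turned from -0.22 (SE 0.82) to 1.23 (SE 0.68) without that library. Cd9 was then the only tested gene of the class with a negative difference.

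Among genes of macrophages in general, Cd68, a lysosomal glycoprotein, stood at 2.23, 3.04 and 3.37 CPM in NCD and at 4.33, 7.40 and 4.56 CPM in HFD (log2 1.10, SE 0.32, edgeR adjusted p = 0.0754). Ctss, a lysosomal protease, had 64.6, 50.7 and 40.0 CPM in NCD and 26.3, 33.1 and 29.0 CPM in HFD (log2 -0.59, SE 0.19, adjusted p = 0.0883). These 2 lysosomal genes thus lay on opposite sides, each without overlap. Tyrobp, the adaptor of Trem2, had a log2 difference of 1.17 (SE 0.40, adjusted p = 0.103) with overlapping groups. Csf1r (-0.19), Mpeg1 (0.39), Fcgr1 (0.90) and Lyz2 (0.14) had unadjusted p above 0.05; without NCD replicate 1 Lyz2 was at -0.14.

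Resident Kupffer cell genes were split, 5 of 10 positive and 5 negative. Cd5l had 209.6, 91.6 and 70.7 CPM in NCD and 44.1, 66.1 and 55.2 CPM in HFD (log2 -0.93, SE 0.35, edgeR adjusted p = 0.126), and its difference shrank to -0.40 (adjusted p = 0.147) without NCD replicate 1. Timd4, a receptor for phosphatidylserine on long-lived resident cells, had 8.52, 3.74 and 3.76 CPM in NCD and 2.34, 3.98 and 2.42 CPM in HFD, overlapping (log2 -0.66, adjusted p = 0.274; -0.23 without NCD replicate 1). Clec4f was level within its spread, at 62.6 ± 9.83 CPM in NCD and 64.9 ± 6.72 CPM in HFD. Adgre1, Marco and C1qc also overlapped, as did Vsig4 and Folr2. Vsig4 had the largest difference of the 10 (log2 1.11, SE 0.53, edgeR adjusted p = 0.204), and 0.60 without NCD replicate 1. Without that library Adgre1 moved from -0.54 to -0.06 and Folr2 from 0.25 to 0.04. Marco changed sign, from -0.53 to 0.72, so the split of the 10 depended in part on that library. Tlr2, a receptor for bacterial lipoproteins, had 0.203, 0.234 and 0.605 CPM in NCD, the first 2 under the floor, and 1.09, 1.03 and 1.11 CPM in HFD (log2 1.64, SE 0.61, adjusted p = 0.125; 1.18 without NCD replicate 1). Cd14 and Tlr4 overlapped and Nlrp3 was not tested.

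The 3 chains of the complement protein C1q, which are encoded side by side on chromosome 4 (C1qb chr4:136880129-136886187, C1qc chr4:136889804-136893065 and C1qa chr4:136895917-136898803, all on the minus strand, GRCm38) and assemble into 1 molecule, had differing values in the diet comparison, none of them called. C1qa had 49.0, 37.8 and 32.5 CPM in NCD and 21.1, 30.4 and 22.5 CPM in HFD (log2 -0.47, SE 0.20, edgeR adjusted p = 0.160). C1qb had 9.94, 22.0 and 20.3 CPM in NCD and 23.2, 28.0 and 23.3 CPM in HFD (log2 0.71, SE 0.31, adjusted p = 0.167). Neither pair of groups overlapped, and these 2 chains lay on opposite sides; without NCD replicate 1 the differences were -0.35 and 0.39. C1qc overlapped between the diets (log2 0.06, SE 0.21, adjusted p = 0.867). The ratio of C1qa to C1qb counts within a library, a comparison chosen after the values were seen, was 4.93, 1.72 and 1.60 in NCD and 0.909, 1.09 and 0.966 in HFD. Their exact 95% intervals, which cover counting error only, ran from 1.33 to 6.19 in NCD and from 0.818 to 1.20 in HFD. Because each ratio is taken within a library, library scaling does not enter it. The share of reads not assigned to a gene was 35.7% to 58.2% in NCD and 31.9% to 33.0% in HFD, and within it the share mapped to no feature was 8.58% to 23.2% in NCD and 4.92% to 6.85% in HFD; their part in the ratio was not tested.

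**Figure D2:**
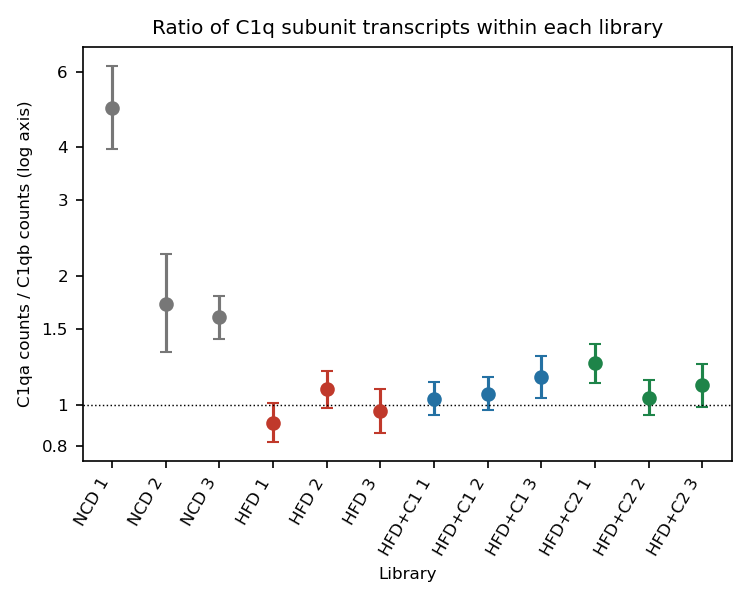
Counts of C1qa over counts of C1qb in each of the 12 libraries, on a log axis, with exact 95% intervals for counting error; colours are the 4 groups and the dotted line is a ratio of 1. The 3 NCD libraries lie at 1.60 or above and the 9 high-fat diet libraries between 0.909 and 1.25.

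With C1 on the high-fat diet, most genes of resident and general macrophages stood higher than with the diet alone, by about 0.5 to 1 on the log2 scale, but none was called at the threshold set. Of 34 genes tested 0 were called by edgeR, where the background was 0.0524% of 13358 genes (7, all lower). At an unadjusted p under 0.05, 16 of the 34 were higher and 0 lower, against 3.26% of all genes higher and 4.48% lower. The groups did not overlap, with HFD+C1 higher, for 14 of the 34, against 6.60% of all genes. The median log2 difference was 0.56 over the members and 0.01 over all genes tested. For the 17 resident and general macrophage genes alone, 17 differences were positive, 15 had an unadjusted p under 0.05, and the median was 0.67. From the same libraries DESeq2 called 7 of the 34 members and 0.539% of all genes, and limma with voom and quality weights called 8 members and 0.374% of all genes. Without HFD replicate 2, edgeR called 11 of the 34 and 0.767% of all genes, and without any other single library it called 0 members. A fit of all 12 libraries called 0 members and 0 genes, and 12 members were then higher at an unadjusted p under 0.05, against 0.936% of all genes. HFD replicate 2 was above the HFD mean in 10 of 10 resident genes, against 0 of 10 in replicate 1 and 1 of 10 in replicate 3.

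Clec4f (chr6:83644542-83656187, minus strand, GRCm38), the Kupffer cell lectin, had the smallest p among the members: 59.6, 72.5 and 62.7 CPM in HFD and 100.3, 120.0 and 96.6 CPM in HFD+C1 (log2 0.69, SE 0.13, edgeR adjusted p = 0.0984). Cd5l had 44.1, 66.1 and 55.2 CPM in HFD and 115, 105 and 75.9 CPM in HFD+C1 (log2 0.82, SE 0.17, adjusted p = 0.136). Adgre1, the F4/80 antigen, had 3.18, 6.08 and 3.53 CPM in HFD and 7.36, 9.76 and 8.22 CPM in HFD+C1 (log2 0.97, SE 0.23, adjusted p = 0.206), the largest difference of the 34. Every HFD+C1 library lay above every HFD library for these 3 genes. Without HFD replicate 2 they were 0.74, 0.94 and 1.29 (adjusted p = 0.0183, 0.0183 and 0.00927).

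Vsig4, a complement receptor of the Kupffer cell surface, had 10.9, 18.1 and 9.29 CPM in HFD and 18.2, 24.7 and 22.3 CPM in HFD+C1 (log2 0.75, SE 0.20, edgeR adjusted p = 0.303). Its lowest HFD+C1 library lay just above HFD replicate 2. Timd4 had 2.34, 3.98 and 2.42 CPM in HFD and 5.13, 5.30 and 4.30 CPM in HFD+C1 (log2 0.74, SE 0.23, adjusted p = 0.396). Folr2, a folate receptor of tissue macrophages, had 4.42, 6.65 and 3.33 CPM in HFD and 7.47, 10.3 and 7.42 CPM in HFD+C1 (log2 0.79, SE 0.23, adjusted p = 0.366). These were again separate, with HFD replicate 2 the closest HFD library. Marco, a scavenger receptor, was the 1 resident gene of 10 whose groups overlapped (log2 0.52, SE 0.34, adjusted p = 0.798).

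The 3 C1q chains had differences between 0.54 and 0.67 here. C1qa had 21.1, 30.4 and 22.5 CPM in HFD and 38.7, 44.7 and 35.1 CPM in HFD+C1 (log2 0.67, SE 0.15, edgeR adjusted p = 0.191). C1qb had 23.2, 28.0 and 23.3 CPM in HFD and 37.4, 42.1 and 30.2 CPM in HFD+C1 (log2 0.54, SE 0.14, adjusted p = 0.278). C1qc had 17.0, 24.3 and 14.3 CPM in HFD and 32.4, 28.5 and 25.6 CPM in HFD+C1 (log2 0.62, SE 0.17, adjusted p = 0.303). No chain overlapped between the groups. The ratio of C1qa to C1qb was 1.03, 1.06 and 1.16 in HFD+C1.

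Genes of macrophages in general followed the resident genes. Ctss had 26.3, 33.1 and 29.0 CPM in HFD and 49.9, 48.6 and 39.4 CPM in HFD+C1 (log2 0.63, SE 0.13, edgeR adjusted p = 0.136). Mpeg1, a pore-forming protein of phagosomes, had 15.7, 19.6 and 14.5 CPM in HFD and 27.3, 26.1 and 24.1 CPM in HFD+C1 (log2 0.62, SE 0.13, adjusted p = 0.138). Lyz2 had 25.7, 38.5 and 22.6 CPM in HFD and 44.7, 54.4 and 47.6 CPM in HFD+C1 (log2 0.74, SE 0.17, adjusted p = 0.206). All of them were separate between the groups. Fcgr1, the high-affinity receptor for immunoglobulin G, had 2.65, 2.31 and 1.67 CPM in HFD and 3.89, 4.46 and 3.13 CPM in HFD+C1 (log2 0.77, SE 0.24, adjusted p = 0.417), also separate. Csf1r and Cd68 overlapped, with log2 differences of 0.64 and 0.61, and Tyrobp had 0.26.

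The other classes had lower medians, at 0.21 for 3 tested genes of pattern recognition, 0.25 for 6 chemokines and cytokines and -0.30 for 2 monocyte genes, though a test between classes was not made. Of 6 genes of lipid-associated macrophages none reached an unadjusted p of 0.05, and their median log2 difference was 0.23. Lgals3 (galectin-3) was the 1 of them whose groups did not overlap, at 4.48, 4.73 and 4.09 CPM in HFD and 5.25, 6.23 and 5.94 CPM in HFD+C1 (log2 0.36, adjusted p = 0.653). Gpnmb, a glycoprotein of lysosome-rich macrophages, had 0.716, 0.320 and 0.833 CPM in HFD and 0.491, 0.398 and 0.318 CPM in HFD+C1 (log2 -0.63, SE 0.46, edgeR adjusted p = 0.836). The monocyte integrin Itgam had 0.529, 0.854 and 0.278 CPM in HFD and 0.227, 0.663 and 0.265 CPM in HFD+C1 (log2 -0.55, SE 0.54, adjusted p = 0.879). Ccr2, which brings monocytes out of the marrow, had 0.685, 0.960 and 0.754 CPM in HFD and 0.604, 0.663 and 1.11 CPM in HFD+C1 (log2 -0.05, SE 0.37, adjusted p = 0.988), with a sign that turned in some alternatives. These 3 were the members with negative differences, all overlapping and near 1 CPM or under. Cxcl9 showed a log2 difference of 0.00 (95% interval -0.37 to 0.37), at 11.3, 9.98 and 7.32 CPM in HFD+C1. Among chemokines and cytokines, Ccl6 alone had an unadjusted p under 0.05 (log2 0.57, SE 0.20, adjusted p = 0.462). Ccl2, Ccl5, Cxcl1 and Il1b overlapped between the groups, with differences between 0.10 and 0.55. Cd14, the co-receptor for bacterial lipopolysaccharide, had a log2 difference of 0.71 (SE 0.37, edgeR adjusted p = 0.703), near the median of the resident genes, and Itgax had 0.57 (SE 0.41, adjusted p = 0.829); both overlapped. Tlr2 (log2 0.03) and Tlr4 (log2 0.21) overlapped too, and Ly6c2, Nlrp3, Tnf and Il6 were not tested.

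**Figure D3:**
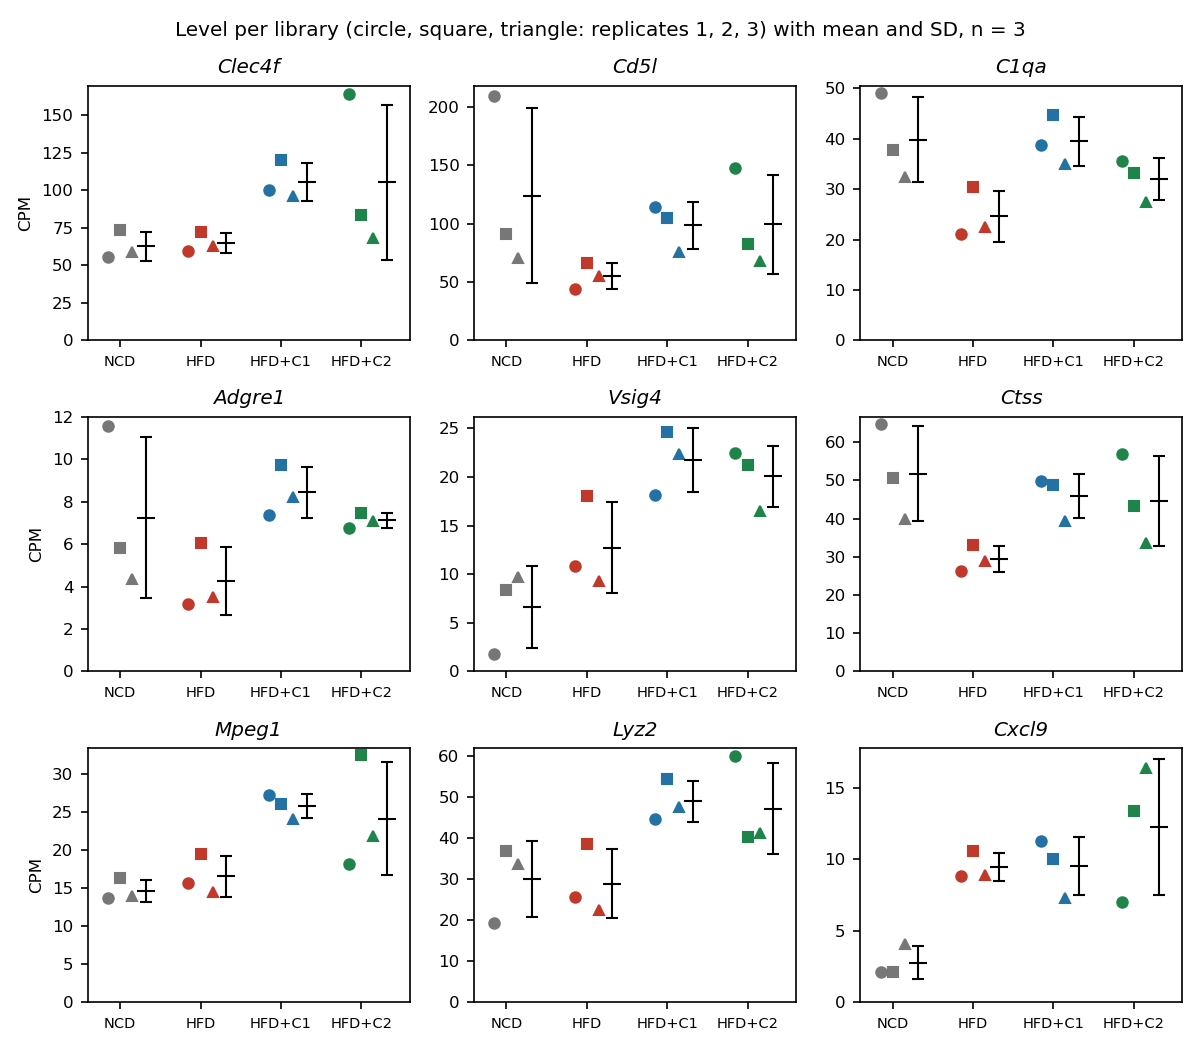
CPM of 9 genes in each library, by group, with the mean and SD of 3 libraries beside them. For Clec4f, Cd5l, C1qa, Adgre1, Vsig4, Ctss, Mpeg1 and Lyz2 every HFD+C1 library lies above every HFD library, while for Cxcl9 the step is between NCD (2.10 to 4.10 CPM) and HFD (8.81 to 10.6 CPM).

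With C2 the same resident and general macrophage genes also had positive differences from HFD, with wider spread; both compound comparisons share the 3 HFD libraries. Of 34 genes tested edgeR called 0, against 0.0222% of all 13503 genes (3, all lower); DESeq2 and limma with voom and quality weights also called 0 members, and 0.259% and 0.400% of all genes. At an unadjusted p under 0.05, 11 were higher and 0 lower, against 3.19% of all genes higher and 3.70% lower. The groups did not overlap, with HFD+C2 higher, for 6 of the 34, against 4.58% of all genes. The median log2 difference was 0.44 over the members and 0.02 over all genes tested. For the 17 resident and general macrophage genes, 17 were positive, 10 had an unadjusted p under 0.05 and the median was 0.59. Without HFD+C2 replicate 1 the members' median was 0.27 and that of the 17 was 0.37, with 17 still positive. The 11 members on the higher side at an unadjusted p under 0.05 became 2 without HFD replicate 1 and 2 without HFD replicate 3, where the share of all genes on that side was 1.08% and 1.34%.

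Cd5l had 147.6, 82.6 and 67.7 CPM in HFD+C2, against 44.1 to 66.1 CPM in HFD (log2 0.93, SE 0.32, edgeR adjusted p = 0.695), and 0.45 without HFD+C2 replicate 1. Adgre1 had 6.79, 7.49 and 7.12 CPM in HFD+C2, against 3.18 to 6.08 CPM in HFD (log2 0.80, SE 0.25, adjusted p = 0.695), and 0.78 without that library. Lyz2 had 59.9, 40.3 and 41.3 CPM in HFD+C2, against 22.6 to 38.5 CPM in HFD (log2 0.77, SE 0.25, adjusted p = 0.695), and 0.49 without it. Ctss had 56.9, 43.3 and 33.6 CPM in HFD+C2, against 26.3 to 33.1 CPM in HFD (log2 0.67, SE 0.23, adjusted p = 0.695), and 0.39 without it. For these 4 genes every HFD+C2 library lay above every HFD library, and for all but Adgre1 replicate 1 was the highest. Marco had the largest difference, with 4.19, 10.9 and 5.46 CPM in HFD+C2 and 2.30, 5.66 and 2.42 CPM in HFD (log2 1.05, SE 0.42, adjusted p = 0.695), and its groups overlapped. Clec4f had 164.0, 83.3 and 68.4 CPM in HFD+C2, so that replicate 1 stood well above the others and the groups overlapped (log2 0.78, SE 0.33, adjusted p = 0.695). Without replicate 1 its difference was 0.23 (SE 0.15, adjusted p = 0.586). The C1q chains had log2 differences of 0.44 for C1qa, 0.25 for C1qb and 0.23 for C1qc, each with overlap.

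Cxcl1 stood at 14.0 CPM in HFD+C2 replicate 1, while the other 2 HFD+C2 libraries had 3.54 and 5.63 CPM, against 3.83 to 5.02 CPM in HFD (log2 0.89, SE 0.46, edgeR adjusted p = 0.696). Without replicate 1 the difference was 0.04, so it rested on that library. The members with negative differences were Gpnmb, Tlr2, Trem2 and Ccr2. Gpnmb had 0.346, 0.256 and 0.298 CPM in HFD+C2 (log2 -1.01, SE 0.48, adjusted p = 0.695) against 0.320 to 0.833 CPM in HFD. Tlr2 had 0.994, 0.694 and 0.725 CPM in HFD+C2, below the 1.03 to 1.11 CPM of HFD (log2 -0.37, SE 0.32, adjusted p = 0.765; -0.61 without replicate 1), and was the 1 of the 34 tested members whose HFD+C2 libraries were all lower, against 8.39% of all genes. Trem2 had 0.951, 0.438 and 0.341 CPM in HFD+C2, which overlapped with HFD (log2 -0.23, SE 0.50, adjusted p = 0.911; -0.85 without replicate 1). Of the 6 chemokines and cytokines tested 6 had positive differences, between 0.40 and 0.89, and Ccl6 alone had an unadjusted p under 0.05 (0.0499). Without replicate 1 Ccl2 and Il1b were at -0.19 and -0.11 and Ccl6 at 0.29, and Cxcl9 and Ccl5 were at 0.64 and 0.65. The remaining tested members overlapped between the groups except Cd9 and Lgals3, which were higher in every HFD+C2 library (log2 0.30 and 0.38, adjusted p = 0.699 and 0.696; 0.15 and 0.29 without replicate 1).

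**Figure D4:**
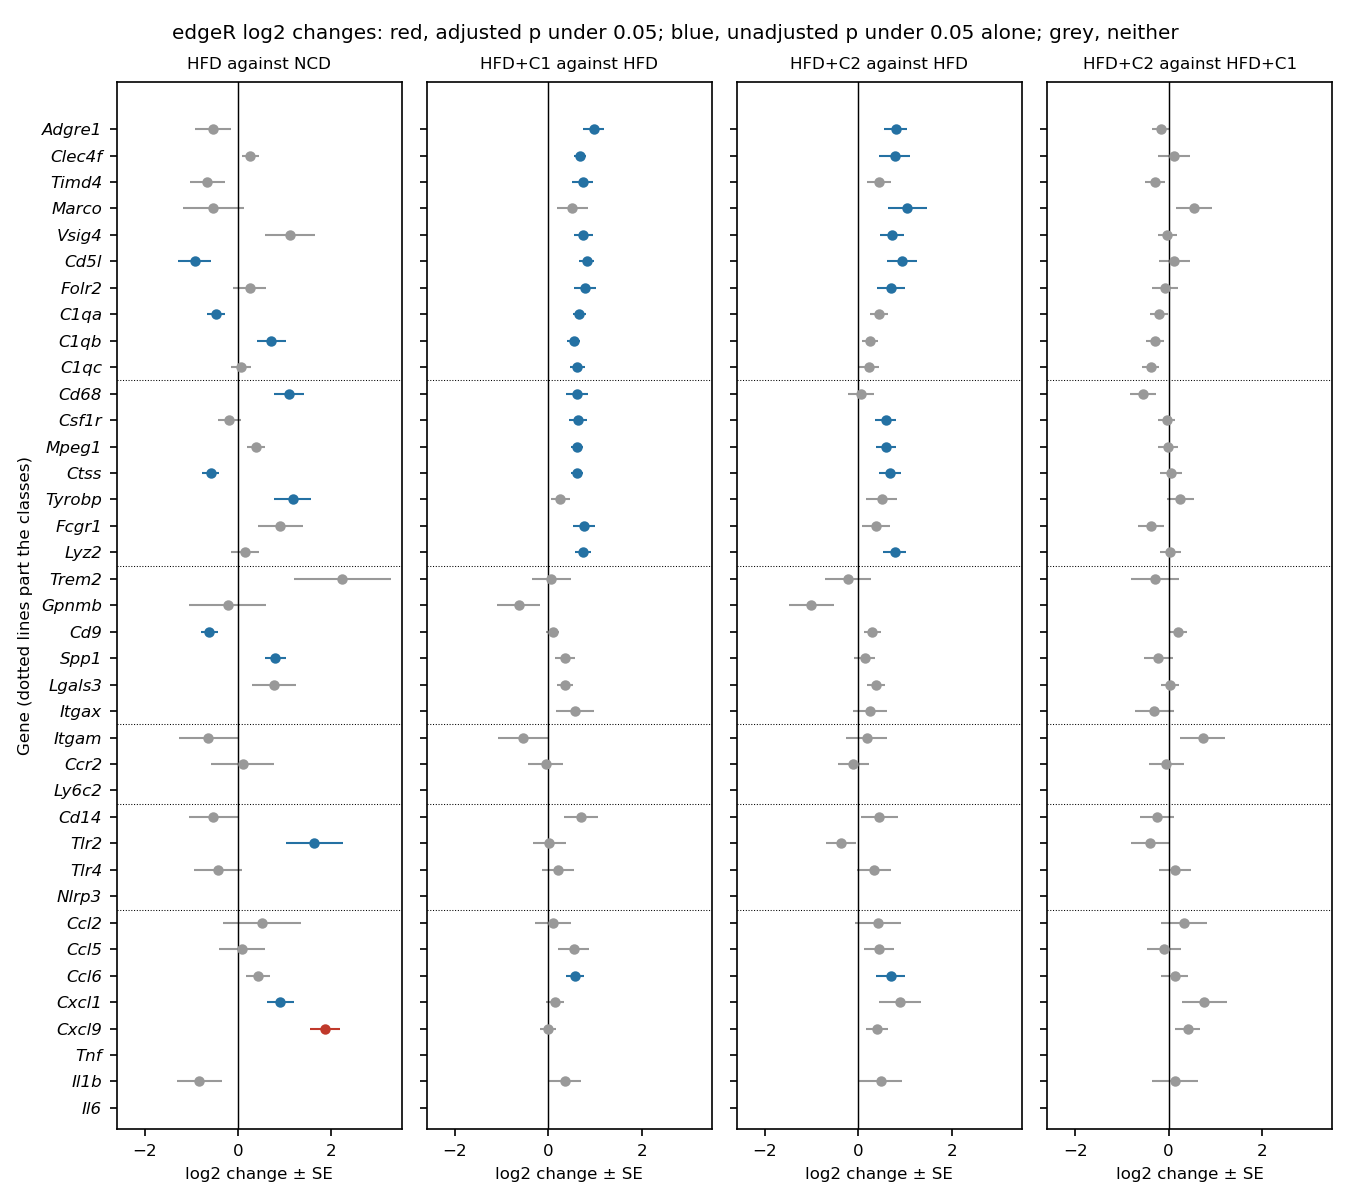
edgeR log2 difference with its SE for each tested gene in the 4 comparisons, in rows by class; red marks an adjusted p under 0.05, blue an unadjusted p under 0.05 alone and grey neither. Cxcl9 in the diet comparison is the single red point, and the blue points of the compound comparisons lie mostly in the resident and general macrophage classes.

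The compounds were set against each other directly, at the same dose and time. Of 33 members tested edgeR called 0 (background 0 of 13229 genes, or 0%), DESeq2 and limma with voom and quality weights called 0, and 0 had an unadjusted p under 0.05, against 4.60% of all genes. Without HFD+C2 replicate 1 that count became 2 higher and 2 lower, against 3.00% and 3.33% of all genes. The median log2 difference of HFD+C2 from HFD+C1 was -0.02 for the members and 0.01 for all genes. Without HFD+C2 replicate 1 the members' median was -0.28. The intervals do not show that the compounds act alike: for Clec4f the 95% interval ran from -0.67 to 0.88, for Cd5l from -0.62 to 0.87, for Adgre1 from -0.58 to 0.24 and for Csf1r from -0.44 to 0.35. Without HFD+C2 replicate 1 the difference of Clec4f moved from 0.11 to -0.45 (adjusted p = 0.780) and that of Cd5l from 0.12 to -0.37 (adjusted p = 0.806). Timd4 and C1qc were the 2 of the 33 tested members whose groups did not overlap, both with HFD+C2 lower, where 7.51% of all genes did the same; 2 of 33 is near that background. Timd4 had 5.13, 5.30 and 4.30 CPM in HFD+C1 and 3.89, 4.02 and 3.49 CPM in HFD+C2 (log2 -0.29, SE 0.21, 95% interval -0.76 to 0.18). C1qc had 32.4, 28.5 and 25.6 CPM in HFD+C1 and 17.1, 25.4 and 20.3 CPM in HFD+C2 (log2 -0.38, SE 0.18, 95% interval -0.79 to 0.02, adjusted p = 0.841).

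Cxcl1 had 5.74, 5.17 and 3.77 CPM in HFD+C1 and 14.0, 3.54 and 5.63 CPM in HFD+C2 (log2 0.76, interval -0.32 to 1.85), which became -0.10 without HFD+C2 replicate 1. Itgam had 0.227, 0.663 and 0.265 CPM in HFD+C1 and 0.605, 0.548 and 0.682 CPM in HFD+C2 (log2 0.73, interval -0.38 to 1.84). Marco had 6.15, 5.70 and 2.92 CPM in HFD+C1 and 4.19, 10.9 and 5.46 CPM in HFD+C2 (log2 0.55, interval -0.34 to 1.43). These were the most positive differences, and all 3 overlapped. Cd68 had 5.78, 9.41 and 10.1 CPM in HFD+C1 and 3.46, 6.61 and 6.39 CPM in HFD+C2 (log2 -0.55, interval -1.18 to 0.09; -0.35 without HFD+C2 replicate 1). Tlr2 had 1.36, 0.574 and 1.43 CPM in HFD+C1 and 0.994, 0.694 and 0.725 CPM in HFD+C2 (log2 -0.39, interval -1.34 to 0.57; -0.63 without HFD+C2 replicate 1). Both overlapped as well.

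A set of 6 further lists gives the wider setting of these genes. With the diet, edgeR called Gas6, the ligand of the clearance receptors Axl and Mertk (log2 0.95, adjusted p = 0.0477), higher among 21 tested of 24 other macrophage surface and lysosomal genes, of which 12 were positive. For this and the lists that follow the background is again 6.03% of genes called. Of 11 tested among 23 other chemokines, Ccl9 fell (log2 -1.70, SE 0.17, adjusted p = 0.00431), from 60.5, 45.8 and 53.4 CPM in NCD to 13.6, 14.5 and 14.2 CPM in HFD. Of 26 tested among 31 genes of toll-like receptor, inflammasome and NF-kB signalling, Nfkb2, an NF-kB subunit, rose (log2 1.41, adjusted p = 0.0291), as did Il1rn, the interleukin 1 receptor antagonist (log2 2.09, adjusted p = 0.0478). None of 11 tested identity regulators and growth factors, 7 class II antigen presentation genes or 3 chemokine receptors was called; their median log2 differences were 0.32, 0.05 and -0.92.

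With C1 no gene of these lists was called. Of 24 other macrophage surface and lysosomal genes 21 were positive, 13 had an unadjusted p under 0.05 in that direction, and the median log2 difference was 0.42. Over all 13358 genes tested 6843 were positive, 3.26% had such a p on the higher side, and the median was 0.01. The smallest p-values were those of Axl (log2 0.68, SE 0.15, edgeR adjusted p = 0.175), of Id3, a transcription regulator of the Kupffer cell programme that other liver cells also express (log2 -0.86, SE 0.20, adjusted p = 0.206), and of Cd163, the haemoglobin scavenger receptor (log2 0.82, SE 0.19, adjusted p = 0.206). Medians of the other lists were -0.03 for 11 identity regulators, 0.27 for 7 class II genes, 0.10 for 11 chemokines, 0.43 for 4 chemokine receptors and 0.14 for 28 signalling genes. With C2 none was called either, and the smallest p-values were those of Cebpb (log2 -1.07, SE 0.22, adjusted p = 0.625), Id3 (log2 -1.74, SE 0.38, adjusted p = 0.695) and Il1r1 (log2 0.74, SE 0.18, adjusted p = 0.695). The median of the 24 surface and lysosomal genes was 0.27 with C2, and 19 were positive, against a median of 0.02 and 7052 positive of all 13503 genes tested. Between the compounds none was called, and the smallest p-values among these lists were those of Relb (log2 -0.84), Cd163 (log2 -0.50) and Tnfrsf1a (log2 -0.40), each with an adjusted p of 0.841.

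Markers of other cell types were followed in the same libraries. With the diet Lyve1 of sinusoidal endothelium (log2 2.20) and the collagens Col1a1 (log2 2.58) and Col3a1 (log2 1.19) of stellate cells rose (edgeR adjusted p = 0.0361, 0.00927 and 0.0244), and the other marker lists held no called gene, against 6.03% of all genes called. With either compound no marker gene was called. With C2 the 7 sinusoidal endothelial markers lay on the same side as the macrophage genes: 7 were positive, with a median log2 difference of 0.25, and 2, Cdh5 (log2 0.52) and Lyve1 (log2 0.62), had an unadjusted p under 0.05 and groups that did not overlap (edgeR adjusted p = 0.695 for both), where the backgrounds were 3.19% and 4.58% of all genes. Their part in the macrophage differences with C2 was not tested. The summed level of 8 B cell markers was 4.67 to 10.04 CPM in NCD, 2.71 to 4.59 in HFD, 2.81 to 10.6 in HFD+C1 and 2.21 to 7.38 in HFD+C2. The 10 T and NK cell markers summed to 5.10 to 10.8 CPM in NCD and to between 2.58 and 4.61 CPM in the other groups. The 8 neutrophil markers summed to 1.64 to 6.48 CPM over all groups, with their defining gene Ly6g at 0 counts in all 9 high-fat diet libraries. The 6 dendritic cell markers summed to 2.10 to 8.62 CPM in NCD and to 3.13 to 4.48 CPM in the other groups. The 5 cholangiocyte markers summed to 7.01 to 14.1 CPM in NCD, 4.88 to 7.75 in HFD, 7.32 to 8.98 in HFD+C1 and 5.45 to 7.88 in HFD+C2. With C1, 3 of 4 tested were positive and 1 negative, and Krt19 (log2 1.02) alone was higher without overlap, against 6.60% of all genes. The smallest edgeR adjusted p of that list was 0.438. The 4 adipocyte markers summed to 0.467 to 1.12 CPM in NCD, 0.031 to 0.040 in HFD, 0.088 to 0.604 in HFD+C1 and 0.043 to 0.213 in HFD+C2. These low sums were thus lower in HFD than in every other group. The 3 mesothelial markers summed to 0.304 to 0.701, 0.079 to 0.462, 0.038 to 1.17 and 0.146 to 0.256 CPM in the same order. No gene of these 2 lists had enough counts to be tested. Sinusoidal endothelial markers (7) summed to 80.2 to 104 CPM in NCD, 75.4 to 104 in HFD, 85.0 to 99.4 in HFD+C1 and 89.5 to 115 in HFD+C2, and stellate cell markers (7) to 91.4 to 115, 96.3 to 125, 101 to 123 and 116 to 139 CPM.

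Erythroid transcripts, a sign of blood in the tissue, were on the lower side with C1: the 5 markers summed to 321 to 578 CPM in NCD, 260 to 364 in HFD, 188 to 301 in HFD+C1 and 245 to 296 in HFD+C2. With C1 all 5 had negative differences, of which 3 had an unadjusted p under 0.05, led by Hba-a2 (log2 -0.97, edgeR adjusted p = 0.212), where 4.48% of all genes had such a p on the lower side. Hepatocyte markers (8) summed to 41240 to 89250 CPM in NCD, 94520 to 115700 in HFD, 110100 to 118300 in HFD+C1 and 74320 to 147800 in HFD+C2. These sums moved with the diet comparison, all NCD libraries lying below all HFD libraries, also without NCD replicate 1 (88800 and 89250 in the other 2). Albumin (Alb) made up much of them, with a mean of 35600 CPM in NCD and 61020 CPM in HFD. Taken singly, 5 of the 8 markers had positive and 3 negative log2 differences. The groups did not overlap for 3 higher markers and 2 lower ones, against 11.9% and 27.0% of all genes. These lower ones were Tat (log2 -0.79) and Serpina1c (log2 -0.63), with edgeR adjusted p = 0.0681 and 0.0916. The part of hepatocyte content in the diet differences of the members was not tested. The 10 resident Kupffer cell genes by comparison summed to 226 to 384 CPM in NCD, 188 to 262 in HFD, 309 to 396 in HFD+C1 and 247 to 440 in HFD+C2, and the 7 genes of macrophages in general to 114 to 132, 88.7 to 131, 153 to 180 and 135 to 172 CPM. In both sums HFD+C1 lay wholly above HFD, while NCD and HFD overlapped. HFD+C2 lay wholly above HFD in the sum of the genes of macrophages in general, also without HFD+C2 replicate 1 (135 to 158 CPM). Without NCD replicate 1 the resident genes summed to 226 to 272 CPM in NCD, and without HFD+C2 replicate 1 to 247 to 307 CPM in HFD+C2, both overlapping with HFD. The part of blood content, or of other cells, in the macrophage differences was not tested.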

How the data were processed

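Per the submitters' processing notes, reads were handled with Trimmomatic 0.39, STAR 2.7 and DESeq2 on mm10; the counting program, annotation and strand setting are not given in the sources used here. The authors deposited 3 tables of read counts per gene. Their names call them normalized, but the values are whole numbers whose totals differ between libraries, so they were used as raw counts. The tables repeat the same 3 HFD columns with no cell that differs, and 0 value columns were left unmapped. A set of 4 rows that name no gene (unmapped, multimapping, no feature and ambiguous reads), holding 27.3% to 58.2% of a library's reads, stayed out of library sizes and tests.

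Each comparison was fitted with edgeR 4.0.16 (R 4.3.3) on its own 6 libraries: TMM scaling, glmQLFit and glmQLFTest, a mean of at least 10 counts, Benjamini-Hochberg adjustment over all genes tested. CPM uses a library's reads in genes, without TMM. Alternatives used DESeq2 1.42.0 and limma 3.58.1. Antisense or overlapping genes cannot be told apart from the members where the counting ignored strand, and Ly6c2 shares sequence with its paralogs.

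Values per library are given for members that were called, that had non-overlapping groups with an unadjusted p under 0.05, or that were among the 3 largest differences in each direction. From the further lists called genes are named, else those with the 3 smallest p-values. Spi1, of the same lists, is given beside the promoters as the gene of PU.1. Other members named are given in brief. The members, classes, lists and tests were chosen with earlier results of these data known. Exon lengths are from GENCODE (GRCm38) and promoter windows from RefSeq.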

Additional observations from a re-analysis of the deposited data

Results flagged for a closer look

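In HFD+C2 replicate 1, 47.1% of the reads were not assigned to a gene, while its 2 fellow libraries had 27.4% and 27.9% and the 3 HFD libraries 31.9% to 33.0%. Of its reads 21.9% were unmapped, 10.9% mapped to no feature, 9.04% were ambiguous between genes and 5.17% mapped to several places. Those reads enter no comparison. The same library had the highest level of Cxcl1 (14.0 CPM), Clec4f (164.0 CPM) and Lyz2 (59.9 CPM) of all 12 and the lowest Cd68 (3.46 CPM) of the 9 high-fat diet libraries. The part of these unassigned reads in those levels was not tested.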

How the results depend on the processing

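Of 647 alternative values computed for 44 results on single genes, 573 kept their direction and their side of the threshold, 65 passed it in the same direction, 3 lost it (Cxcl9 with the diet, without each HFD library) and 6 changed sign. With the diet the number of members called, beside the share of all genes called, was 2 (7.97%) with scaling by the total gene count, 8 (12.7%) without a filter, 5 (16.6%) with DESeq2, 7 (23.2%) with limma, voom and quality weights, 3 (17.4%) in a fit of all 12 libraries, and 0 to 3 (0.165% to 13.7%) when 1 library was left out. Scaling by the total moved the median log2 difference of all genes to -0.24 and that of the members to -0.05. With C1 the number called was 12 (0.690%) without a filter, 7 (0.539%) with DESeq2, 8 (0.374%) with limma, voom and quality weights, 5 (0.270%) with the replicate block, 0 (0%) in a fit of all 12 libraries, and 0 to 11 (0.0150% to 0.767%) when 1 library was left out. With C2 it was 4 (0.531%) without a filter and 0 under the other alternatives, and between the compounds it was 0 throughout. Ccr2 with C1 turned to 0.090 with limma and ranged from -0.34 to 0.12 when 1 library was left out; Trem2 with C2 ranged from -0.85 to 0.084, and Cxcl1 between the compounds from -0.10 to 1.12. The cause of these shifts was not tested, apart from the fewer libraries or other genes that each alternative holds by construction.

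The replicate numbers are shared between groups. Deviations of same-numbered libraries correlated between -0.14 and 0.22, and not every pair was above 0.1, so the main fits did not pair them. With 3 libraries per group these values cannot exclude a pairing or a shared batch, and the labels state none. With the replicate block members called were 1 with the diet (3.48% of all genes), 5 with C1 (0.270%), 0 with C2 (0.0222%) and 0 between the compounds (0%), against 1 (6.03%), 0 (0.0524%), 0 (0.0222%) and 0 (0%) without it. Depth limits the low members most: in NCD replicate 2, 11 of the 38 were at or under 3 counts, and Il6, Tnf, Nlrp3 and Ly6c2 were too low to test in all 4 comparisons.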
